A study of Sus scrofa with 10 samples.

Results

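Genes that carry signals from receptor tyrosine kinases into the cell, 9 in all, were followed across 10 libraries of nuclear RNA from cardiomyocytes sorted from minipig hearts. They are the exchange factor SOS1 with the adaptors GRB2, SHC1 and GAB1, the PI3-kinase subunits PIK3CA, PIK3CB and PIK3R1, and the AKT isoforms AKT1 and AKT2. They were chosen by gene name, with earlier results of these data known, and all 9 were found among the 35670 gene identifiers of the deposited tables. Animals of every group were wild type. The control group was given PBS (libraries 1 to 5), the second group deoxycorticosterone acetate, abbreviated DOCA (libraries 6 and 7), and the third group DOCA together with JK07 (libraries 8 to 10). DOCA is a mineralocorticoid used to load animals with salt and raise blood pressure, and the series title calls JK07 an ERBB4 agonist. The third group thus carried DOCA as well, and no library had JK07 alone. The sources used here gave no heart chamber, dose, time or age. Whether each library came from its own animal is not stated either, so the p-values rest on a spread between samples that may be only technical.

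When a ligand such as neuregulin or insulin activates its receptor, phosphorylated tyrosines on the receptor recruit adaptor proteins. GRB2 brings SOS1 to the membrane, where SOS1 loads Ras with GTP, and Ras then drives the Raf, MEK and ERK kinases. PI3-kinase, a dimer of a catalytic and a regulatory subunit, makes the membrane lipid that recruits AKT, and AKT then phosphorylates proteins of growth, survival and glucose metabolism. In cardiomyocytes, ERBB4 and insulin receptors signal through both branches. The data give RNA levels only, and neither protein nor phosphorylation was measured.

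The gene models, on build Sscrofa11.1 as the files give them, were as follows. SOS1 (ENSSSCG00000008478) lies on chromosome 3 from 101209641 to 101362723, plus strand. GRB2 (ENSSSCG00000017206) lies on chromosome 12 from 5940647 to 6010835, plus strand. SHC1 (ENSSSCG00000006539) lies on chromosome 4 from 94810875 to 94831765, plus strand, and GAB1 (ENSSSCG00000009048) on chromosome 8 from 84257965 to 84391621, minus strand. Both catalytic subunits lie on chromosome 13, PIK3CA (ENSSSCG00000030413) from 117180544 to 117274587 on the plus strand and PIK3CB (ENSSSCG00000021203) from 79425835 to 79610840 on the minus strand. The PIK3R1 model (ENSSSCG00000016958) runs from 46511521 to 46523609 on chromosome 16, plus strand, and covers 13.6% of the RefSeq span of that gene, so its value describes 1 end of the locus. AKT1 (ENSSSCG00000039139) sits on an unplaced scaffold, minus strand. AKT2 (ENSSSCG00000002989) lies on chromosome 6 from 48555795 to 48587919, minus strand. It had no symbol in the files and was named from a reference table, and its model covers 49.7% of the RefSeq span. SHC1 overlaps FLAD1 (mean 1.57 CPM) and CKS1B (0.215 CPM) on the other strand, and with the strand setting of the counting not given, reads in the overlaps cannot be assigned.

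The libraries differed in usable depth. Estimated counts totalled 28.1 to 106 M (M, mega) per library, and 2 scaffolds of ribosomal RNA took 77.6% to 90.8% of them. Counts outside these scaffolds and the mitochondrial genome came to 6.87 M in DOCA library 6 and 3.30 M in library 7, against 8.67 to 13.9 M in control and 9.03 to 12.9 M with JK07. Among 11083 genes with a mean count of at least 100, the DOCA libraries listed 17.2% and 21.4% at 0, against 0.505% to 2.34% in the other 8. The smallest values listed above 0 lay near a coverage of 1, so a 0 means a level below a minimum and not absence. The DOCA values below all rest on these 2 shallower libraries, and the part of depth in them was not tested.

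Within a library, TPM corrects for transcript length and allows genes to be ranked. The ranks of PIK3R1 and AKT2 rest on models that cover 13.6% and 49.7% of their RefSeq spans, and the effect of this was not tested. In control libraries AKT1, the more widely expressed AKT isoform, led with 8.25 ± 1.14 TPM (SD, n = 5), and PIK3R1, the regulatory subunit that stabilises the catalytic subunits, followed with 5.82 ± 1.17 TPM. SHC1 (4.67 ± 1.10 TPM), GRB2 (4.46 ± 0.596 TPM) and SOS1 (4.26 ± 0.751 TPM) formed a middle group whose order changed between libraries. AKT2 stood at 3.16 ± 0.196 TPM and GAB1 at 3.12 ± 0.637 TPM. The catalytic subunits were lowest, PIK3CA at 2.20 ± 0.461 TPM and PIK3CB at 1.36 ± 0.326 TPM. In all 5 control libraries SOS1 exceeded AKT2, GAB1 exceeded PIK3CA and PIK3CA exceeded PIK3CB. The other neighbours did not keep their order in every library: AKT1 exceeded PIK3R1 in 4, PIK3R1 exceeded SHC1 in 4, SHC1 exceeded GRB2 in 2, GRB2 exceeded SOS1 in 3 and AKT2 exceeded GAB1 in 3. In both DOCA libraries AKT1 ranked 1 and GRB2 ranked 2, while SOS1 ranked 6 and 7 and PIK3R1 ranked 7 and 6, in libraries 6 and 7.

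**Figure D1:**
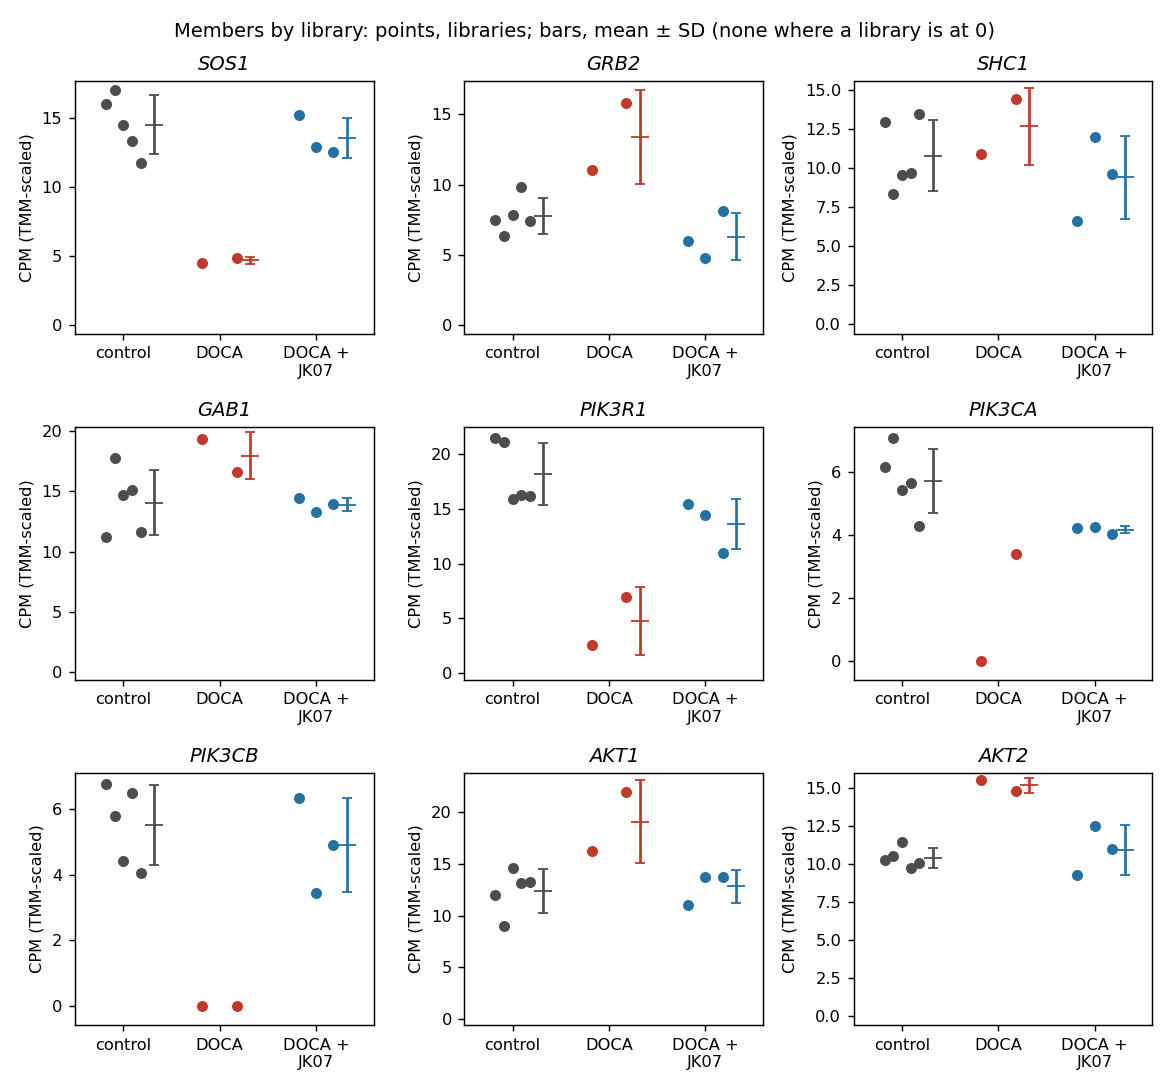
CPM (linear axes) of the 9 genes in each library, with 1 panel per gene, points for libraries and bars for mean and SD where no library of the group is at 0. SOS1 and PIK3R1 have both DOCA points below every control and JK07 point, PIK3CB has both at 0, and GRB2, AKT1 and AKT2 have both above.

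The adaptor group split under DOCA, with SOS1 lower, GRB2 higher and the other 2 not past the test. Levels between libraries are given in CPM, counts per M of library counts after TMM scaling, and an adjusted p under 0.05 in edgeR's quasi-likelihood test over 17251 genes counted as a pass. SOS1 stood at 16.0, 17.0, 14.4, 13.3 and 11.7 CPM in the 5 controls, at 4.51 and 4.89 CPM in DOCA, and at 15.2, 12.9 and 12.5 CPM with JK07. Both DOCA values were far below the lowest control, and the JK07 values lay within the control range. From control to DOCA SOS1 fell 3.09-fold between the group means (log2 change -1.63, SE 0.20, adjusted p = 0.000265), and from DOCA to DOCA plus JK07 it rose (log2 change 1.53, SE 0.21, adjusted p = 0.000565). These are bulk libraries, in which fewer cells of a type and less RNA per cell cannot be told apart. The fall also passed with library 7 as the only DOCA library (-1.57, adjusted p = 0.00233) and with library 6 as the only one (-1.69, adjusted p = 0.00149). In such fits the lone library is assumed to vary like the other groups.

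GRB2, the adaptor that docks SOS1 on activated receptors, moved the other way. Its control values were 7.48, 6.36, 7.85, 9.84 and 7.39 CPM, its DOCA values 11.1 and 15.8 CPM, and its JK07 values 6.03, 4.82 and 8.11 CPM. In CPM both DOCA libraries lay above all 8 others. On TPM rescaled without ribosomal RNA, library 6 stood at 33.8, just under the control range of 33.9 to 61.0, and library 7 at 118. The rise in DOCA was 0.79 on the log2 scale (SE 0.25, adjusted p = 0.0449), and from DOCA to DOCA plus JK07 GRB2 fell (log2 change -1.09, SE 0.27, adjusted p = 0.0237). The first of these calls was close to the threshold: without library 7 it stood at 0.50 (adjusted p = 0.259), and it was also lost without any 1 of control libraries 1, 2, 3 and 5 (adjusted p = 0.0662, 0.0664, 0.0775 and 0.0791) or without JK07 library 8 (0.0527). The second was lost without library 7 (-0.80, adjusted p = 0.109) and without JK07 library 8 (0.0656) or 9 (0.0711). On log2(TPM + 1) in limma the 2 changes were 0.22 and -0.29 and neither passed (adjusted p = 0.658 and 0.567).

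SHC1, which links receptors to GRB2, did not pass in any comparison. It ran from 8.36 to 13.5 CPM in control, stood at 11.0 and 14.5 CPM in DOCA, and at 6.65, 12.0 and 9.63 CPM with JK07, so the 3 groups overlapped. GAB1, the docking protein that recruits PI3-kinase to receptors, ran from 11.2 to 17.8 CPM in control (median 14.7), stood at 19.4 and 16.6 CPM in DOCA and at 14.4, 13.3 and 13.9 CPM with JK07. Its DOCA values overlapped the upper control values but lay above the 3 JK07 values. The log2 change from control to DOCA was 0.23 for SHC1 (SE 0.27, adjusted p = 0.564) and 0.35 for GAB1 (SE 0.20, adjusted p = 0.233).

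All 3 PI3-kinase subunits had both DOCA libraries below every control library, and 2 of the 3 passed the test. Of all genes, 27.6% had both DOCA libraries below every control and 19.7% were called lower. PIK3R1, the p85-alpha regulatory subunit gene, stood at 21.5, 21.1, 15.9, 16.3 and 16.2 CPM in control, at 2.53 and 6.99 CPM in DOCA, and at 15.4, 14.5 and 11.0 CPM with JK07. The DOCA libraries lay well below the rest but differed from each other, and the JK07 libraries lay below the control range, library 10 (11.0 CPM) the furthest. Coverage of PIK3R1 was 0.760 in library 6 and 2.64 in library 7, against 15.5 to 23.1 in control. The library 6 value thus lay near the listing minimum, and so does the fit with that library as the only DOCA one rest on such a value. PIK3R1 fell 3.82-fold from control to DOCA (log2 change -1.94, SE 0.38, adjusted p = 0.00543). It rose from DOCA to DOCA plus JK07 by 1.52 on the log2 scale (SE 0.40, adjusted p = 0.0274). The size of the fall depended on the DOCA library, at -1.38 when library 6 was left out (adjusted p = 0.00815) and -2.85 when library 7 was (adjusted p = 0.000314). The rise stood at 0.96 (adjusted p = 0.0490) and 2.43 (adjusted p = 0.000785) in the same fits, and it was lost without library 1, 4, 8 or 9 (adjusted p = 0.0511, 0.0585, 0.0961 and 0.0666).

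PIK3CB, the p110-beta catalytic subunit gene, stood at 6.78, 5.80, 4.42, 6.50 and 4.07 CPM in control, was listed at 0 in both DOCA libraries, and stood at 6.35, 3.46 and 4.92 CPM with JK07. It passed in edgeR from control to DOCA (adjusted p = 2.35e-05) and from DOCA to DOCA plus JK07 (adjusted p = 2.82e-05), and with the DOCA group at 0 no fold is given. The listing minimum bears on these zeros. For PIK3CB a coverage of 1 was worth 2.14 CPM in library 6 and 2.80 CPM in library 7. The control values were 1.90 to 3.16 times and 1.45 to 2.42 times that. A level in library 7 moderately below the lowest control would thus have been listed at 0.

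PIK3CA, the p110-alpha catalytic subunit gene, was listed at 0 in DOCA library 6 only. It stood at 6.14, 7.08, 5.42, 5.64 and 4.28 CPM in control, at 0 and 3.38 CPM in DOCA, and at 4.21, 4.24 and 4.04 CPM with JK07. The 3 groups did not overlap, but neither DOCA comparison passed in edgeR (adjusted p = 0.300 against control and 0.490 for DOCA plus JK07 against DOCA). The result turned on the library at 0: without library 6 the log2 change from control to DOCA was -0.76 (adjusted p = 0.0882), and without library 7 the gene was at 0 in DOCA and passed (adjusted p = 2.41e-05).

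In CPM the AKT isoforms were both higher in the DOCA libraries than in every control and JK07 library, and AKT2 passed against control. Of all genes, 10.2% had DOCA above every control and 5.73% were called higher. Library 6 had a TMM factor of 0.511, against 0.871 to 1.35 in the others. On TPM rescaled without ribosomal RNA, library 6 was not above every control. AKT2 stood there at 25.1 in library 6 and 58.5 in library 7 (control 29.7 to 35.6). AKT1 stood at 57.9 and 191 (control 55.5 to 99.9). AKT2, the isoform known for its role in insulin-stimulated glucose uptake, stood at 10.2, 10.6, 11.4, 9.76 and 10.1 CPM in control, at 15.5 and 14.8 CPM in DOCA, and at 9.26, 12.5 and 11.0 CPM with JK07. It rose 1.46-fold in DOCA (log2 change 0.54, SE 0.15, adjusted p = 0.0299). AKT1 stood at 12.0, 8.96, 14.6, 13.2 and 13.3 CPM in control, at 16.3 and 21.9 CPM in DOCA, and at 11.0, 13.8 and 13.7 CPM with JK07. Its log2 change from control to DOCA was 0.62 (SE 0.21), larger than that of AKT2, but it did not pass (adjusted p = 0.0605). From DOCA to DOCA plus JK07 the log2 changes were -0.57 for AKT1 (SE 0.24, adjusted p = 0.137) and -0.48 for AKT2 (SE 0.17, adjusted p = 0.0850). The AKT2 call against control was lost without library 6 (adjusted p = 0.0966), library 7 (0.0540) or control library 5 (0.0569). On log2(TPM + 1) in limma the AKT2 change was 0.01 (adjusted p = 0.979), and on TPM rescaled without ribosomal RNA it was 0.26 (adjusted p = 0.594). AKT1 passed without library 6 (0.82, adjusted p = 0.0438) and stood at 0.39 without library 7 (adjusted p = 0.324). It also passed with size factors of the RLE kind (0.70, adjusted p = 0.0267) and with upper-quartile scaling (0.88, adjusted p = 0.0192), and on log2(TPM + 1) in limma it stood at 0.09 (adjusted p = 0.855). In the step from DOCA to DOCA plus JK07, AKT2 passed with RLE (-0.59, adjusted p = 0.0374) and upper-quartile scaling (-0.72, adjusted p = 0.0149). DESeq2 called both AKT2 (adjusted p = 0.000322) and AKT1 (0.00869) lower there.

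Over the 9 genes, 3 fell and 2 rose from control to DOCA, and over all 17251 genes tested 19.7% were called lower and 5.73% higher. By CPM values alone, 4 of the 9 had DOCA below every control, against 27.6% of all genes, and 3 had DOCA above every control, against 10.2%. From DOCA to DOCA plus JK07, 3 rose and 1 fell, where 14.7% of all genes were called higher and 2.25% lower. Groups did not overlap for 4 with JK07 higher (background 30.3%) and 4 with JK07 lower (background 9.82%). These last 2 comparisons share the DOCA libraries. As the 9 genes were chosen with earlier results of these data known, their shares beside those of all genes are description only. The median log2 change of the 9 genes from control to DOCA was 0.23, and that of all genes was -0.63. The latter depends on genes at 0 in both DOCA libraries: with these set to a coverage of 1 it was 0.09, and the members' median stayed at 0.23. Of the 3403 genes called lower in DOCA, 2030 (59.7%) were listed at 0 in both libraries, as PIK3CB was and as SOS1 and PIK3R1 were not. PIK3R1 lay near the listing minimum in library 6, however. With quality weights per library, which let the DOCA libraries vary more, 0 of the 9 passed in either comparison. Of all 17251 genes, 161 and 5 passed. SOS1 (adjusted p = 0.0606) and PIK3R1 (0.0583) came nearest against control. At an unadjusted p under 0.05, edgeR counted 6 of the 9 in each, beside 6262 and 5219 of all 17251 genes. DESeq2 called 6 in each, beside 6286 and 5049 of 16933 genes.

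**Figure D2:**
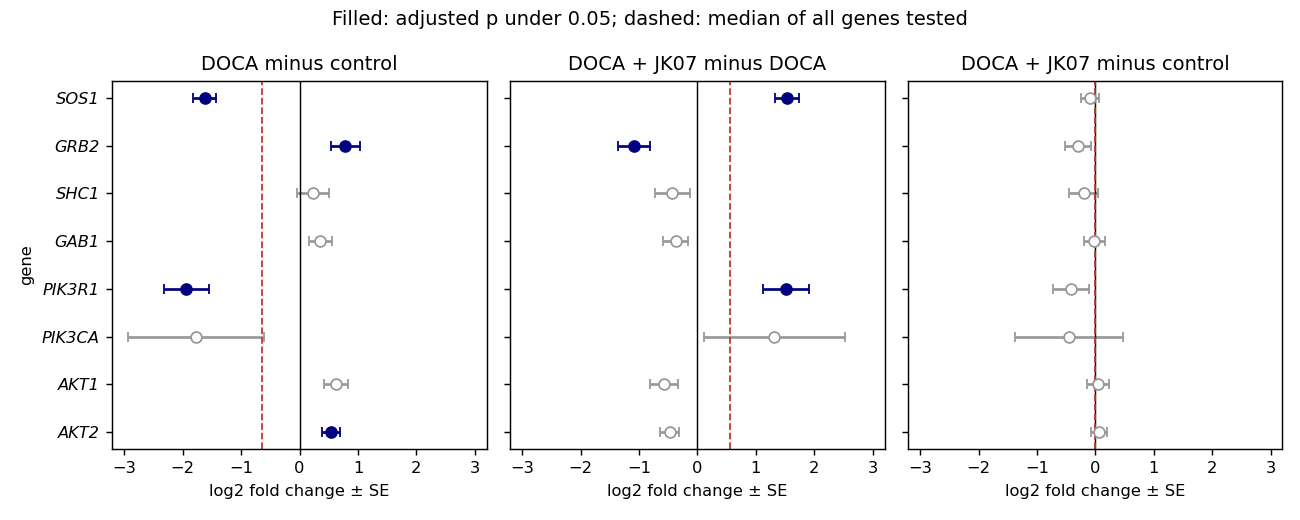
Log2 fold change (x axis) of 8 of the 9 genes in the 3 comparisons, with bars for 1 SE on each side and a dashed line at the median of all genes. SOS1 and PIK3R1 lie at -1.63 and -1.94 from control to DOCA and at 1.53 and 1.52 from DOCA to DOCA plus JK07, and PIK3CB, at 0 in both DOCA libraries, is left out.

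DOCA plus JK07 was set against control to see how far the libraries with both agents lay from untreated ones. None of the 9 genes passed in edgeR, with 0 at an unadjusted p under 0.05, and DESeq2 called 0 as well. Of all genes 0% passed in edgeR in this comparison, although 803 had an unadjusted p under 0.05 and DESeq2 called 116. The log2 changes were -0.10 for SOS1 (SE 0.16), -0.30 for GRB2 (SE 0.22), -0.20 for SHC1 (SE 0.24) and -0.02 for GAB1 (SE 0.17). They were -0.17 for PIK3CB (SE 0.28), -0.42 for PIK3R1 (SE 0.30) and -0.46 for PIK3CA, whose error was wide (SE 0.92). AKT1 and AKT2 stood at 0.05 (SE 0.19) and 0.07 (SE 0.14). PIK3CA and PIK3R1, 2 of the 9, had every JK07 library below every control, which 2.45% of all genes did, and 0 had every one above, which 3.37% did. The errors leave room for differences of the size seen for GRB2 and PIK3R1, so these values do not show that the groups were alike.

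A ratio within a library does not depend on scaling between libraries, so TPM was also divided by that of GRB2. GRB2 itself differed between groups, with means of 7.78 CPM in control, 13.4 CPM in DOCA and 6.32 CPM with JK07. Each ratio therefore carries the change of GRB2 as well as that of the other gene. SOS1 relative to GRB2 was 0.690 to 1.36 in control, 0.207 and 0.157 in DOCA, and 0.788 to 1.36 with JK07. The DOCA ratios were thus far below those of every other library. PIK3R1 relative to GRB2 was 0.915 to 1.84 in control, 0.127 and 0.245 in DOCA, and 0.751 to 1.65 with JK07. PIK3CA had 0.381 to 0.742 in control, 0 and 0.142 in DOCA and 0.332 to 0.586 with JK07, and PIK3CB had 0.235 to 0.390 in control, 0 in both DOCA libraries and 0.259 to 0.449 with JK07. AKT1 relative to GRB2 was 1.56 to 2.16 in control, 1.71 and 1.62 in DOCA, and 1.97 to 3.31 with JK07, so DOCA lay inside the control range. For AKT2 the ratios were 0.524 to 0.877, then 0.742 and 0.496, then 0.716 to 1.37, and for GAB1 0.576 to 1.08, then 0.674 and 0.405, then 0.663 to 1.06. SHC1 had 0.737 to 1.37 in control, 0.739 and 0.683 in DOCA and 0.822 to 1.85 with JK07. Relative to GRB2, SOS1 and the PI3-kinase subunits lay apart in DOCA, while the AKT isoforms, GAB1 and SHC1 had at least 1 DOCA library within the control range.

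**Figure D3:**
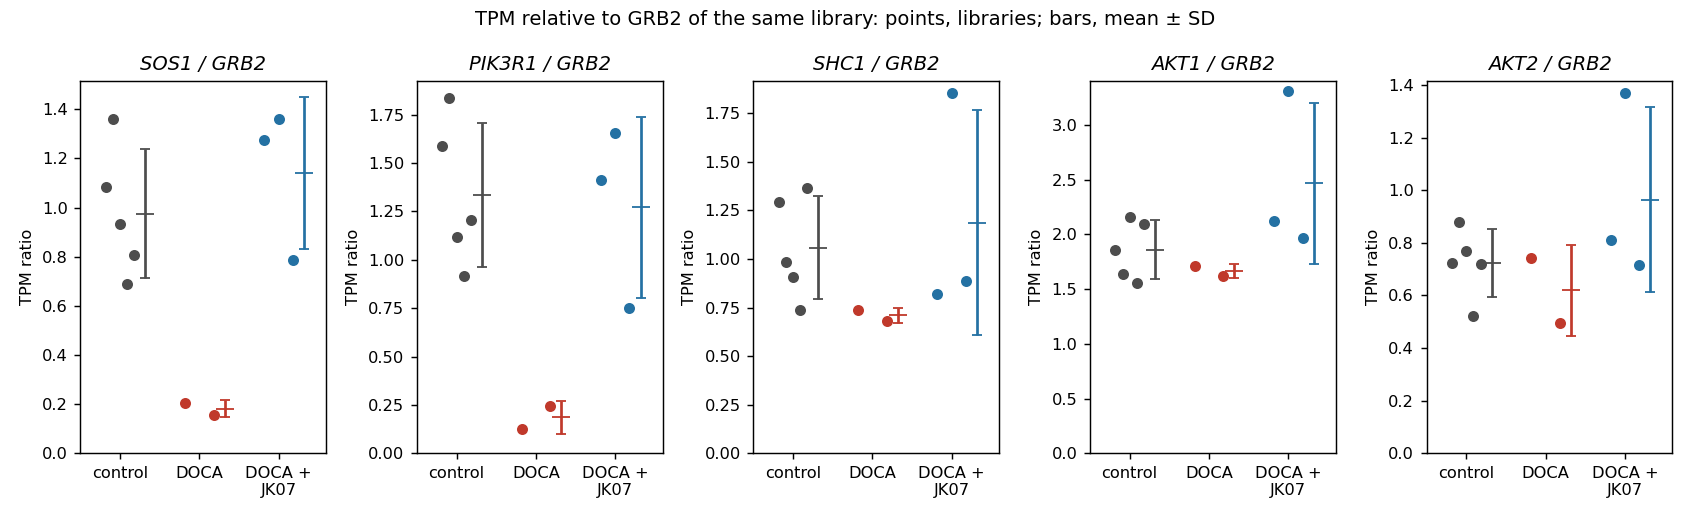
TPM of SOS1, PIK3R1, SHC1, AKT1 and AKT2 divided by TPM of GRB2 in the same library (linear axes), with points for libraries and bars for mean and SD of each group. SOS1 and PIK3R1 sit at 0.127 to 0.245 in DOCA and at 0.690 or higher in the other 8 libraries, whereas AKT1 stays at 1.56 or higher in all 10.

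Shares within 3 pairs of related genes were compared next. AKT1 made up 72.0% ± 3.99 (SD, n = 5) of the summed AKT1 and AKT2 TPM in control, 69.7% and 76.5% in DOCA, and 72.4%, 70.8% and 73.3% with JK07. The difference from control to DOCA was 1.11 percentage points (exact two-sided permutation p = 0.952), so no shift between the isoforms was detectable with these numbers. The level of the share depends on the unit: in estimated counts the AKT1 share in control was 54.0%. The AKT2 model covers 49.7% of its RefSeq span, and the effect of this on the share was not tested. SOS1 made up 45.3% ± 2.46 of SOS1 and SOS2 in control, 40.7% and 32.5% in DOCA, and 44.4%, 44.4% and 42.3% with JK07. Both DOCA shares lay below every other library, and the exact two-sided permutation p of 0.0952 against control is the smallest that 2 against 5 libraries allow, as is 0.2 for DOCA plus JK07 against DOCA. PIK3CB made up 38.1% ± 3.82 of the 2 catalytic subunits in control and 49.2%, 34.3% and 43.9% with JK07 (exact two-sided permutation p = 0.357). In DOCA both subunits were at 0 in library 6, and PIK3CB was at 0 beside PIK3CA in library 7, which gives no share to compare. Adjusted over the 7 tests of shares, every p was 0.667 or higher.

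**Figure D4:**
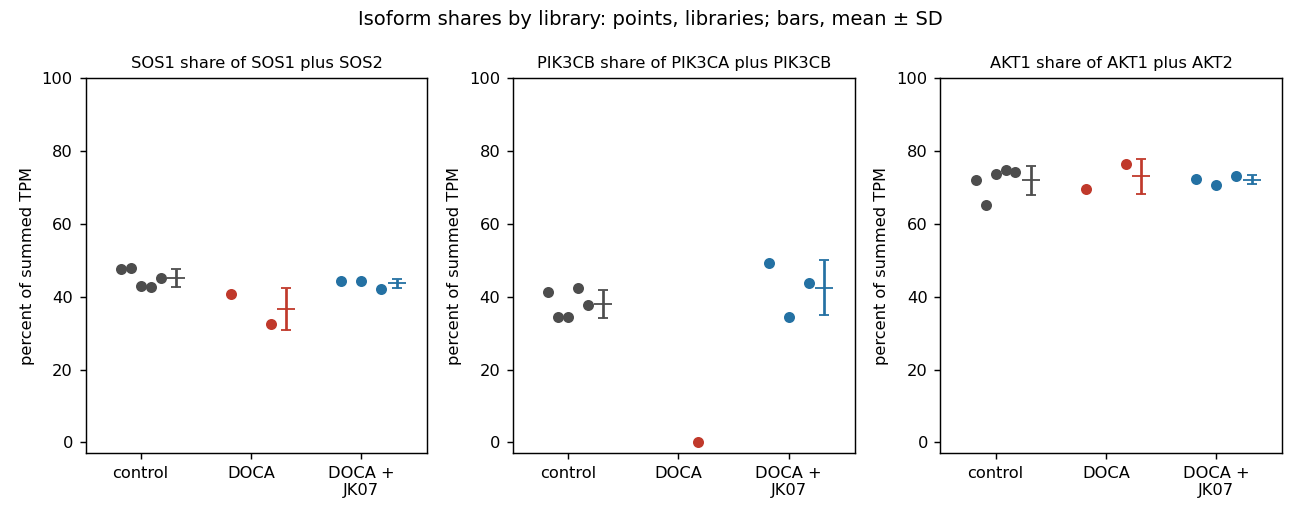
Share in percent of the summed TPM taken by AKT1 (of AKT1 and AKT2), PIK3CB (of PIK3CA and PIK3CB) and SOS1 (of SOS1 and SOS2) in each library, with points for libraries and bars for mean and SD. The AKT1 share lies between 65.1% and 76.5% throughout, and the 2 DOCA libraries have the lowest SOS1 shares, 40.7% and 32.5%.

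The rest of the pathway was read from 8 lists of 94 genes, of which 92 were matched by name and 88 could be tested. From control to DOCA 16 fell (18.2% of the 88, beside 19.7% of all genes) and 4 rose (4.55%, beside 5.73%). With JK07 added to DOCA 9 rose (10.2%, beside 14.7%) and 0 fell (beside 2.25%). These shares were near or below those of all genes. Against control the DOCA plus JK07 group had 0 calls, with 2 genes at an unadjusted p under 0.05 and 0 in DESeq2. The median log2 change of the 88 was 0.02 from control to DOCA, and 0.07 with genes at 0 in both DOCA libraries set to a coverage of 1, beside -0.63 and 0.09 for all genes. Quality weights called 2 from control to DOCA and 0 from DOCA to DOCA plus JK07, beside 161 and 5 of 17251 genes. SHC2 is not analysed here.

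Among the other adaptors and Ras regulators, 7 of 20 fell in DOCA (35.0%, beside 19.7% of all genes) and 0 rose. With JK07 added 4 rose (20.0%, beside 14.7%). SOS2, the second SOS exchange factor, went from 19.5 ± 2.16 CPM in control (SD, n = 5) to 7.32 and 11.3 CPM in DOCA, a fall of 1.07 on the log2 scale (SE 0.21, adjusted p = 0.00518). It rose from DOCA to 19.5 ± 1.61 CPM with JK07 (log2 change 1.06, adjusted p = 0.00899). NF1, the neurofibromin gene, whose protein switches Ras off, went from 37.0 ± 2.71 CPM to 9.50 and 15.9 CPM in DOCA and 33.8 ± 3.72 CPM with JK07 (log2 changes -1.54, adjusted p = 0.000825, and 1.41, adjusted p = 0.00220). The Ras gene NRAS, at 4.76 ± 1.04 CPM in control and 4.01 ± 1.60 CPM with JK07, was listed at 0 in both DOCA libraries. SOS1 and SOS2, which switch Ras on, and NF1, which switches it off, thus fell in the same libraries.

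Of the 6 receptors upstream, INSR, the insulin receptor, rose in DOCA, from 11.3 to 23.8 CPM over the controls to 63.1 and 31.0 CPM (log2 change 1.40, SE 0.32, adjusted p = 0.0122). This 1 call made up 16.7% of the list, beside 5.73% of all genes called higher. Library 6 carried that call (0.80 without it, adjusted p = 0.141). ERBB4, the receptor named as the target of JK07, had DOCA values of 34.5 and 19.8 CPM within or below the control range of 34.1 to 78.2 CPM and did not pass (adjusted p = 0.148).

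Of the 10 other PI3-kinase genes tested, 2 fell in DOCA, which is close to the 19.7% of all genes, and both rose from DOCA to DOCA plus JK07. PIK3C2A, a class II PI3-kinase, had 22.5 to 28.9 CPM in control, 5.63 and 6.56 CPM in DOCA, and 19.6 to 25.1 CPM with JK07 (log2 changes -2.08, SE 0.19, adjusted p = 5.17e-05, and 1.83, adjusted p = 0.000134). PIK3C3, the class III kinase of autophagy, had 8.79 to 12.7 CPM in control, 3.02 and 4.72 CPM in DOCA, and 9.04 ± 1.34 CPM with JK07 (log2 changes -1.42, adjusted p = 0.00282, and 1.23, adjusted p = 0.0102). PIK3CD (adjusted p = 0.264), PIK3CG (0.350) and PIK3R2 (0.783) did not pass from control to DOCA. Of 8 phosphatases and inhibitors of the lipid signal, 1 fell (12.5%, beside 19.7% of all genes). It was INPP4A (14.8 to 9.54 CPM, adjusted p = 0.0405), a call lost without library 6.

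RICTOR, the defining subunit of the mTOR complex that phosphorylates AKT, fell from 21.8 ± 3.30 CPM to 12.0 and 4.95 CPM (log2 change -1.37, adjusted p = 0.0172). DEPTOR, an mTOR inhibitor, fell from 6.73 ± 1.47 CPM to 2.05 and 2.74 CPM (log2 change -1.49, adjusted p = 0.0222). Both rose from DOCA to DOCA plus JK07 (adjusted p = 0.0483 and 0.0103), RICTOR no longer without library 7 (0.120) and DEPTOR no longer without library 6 (0.0551). Without library 6 the fall of DEPTOR was lost too (adjusted p = 0.114). RPTOR, of the other mTOR complex, had 10.6 to 15.6 CPM in control and 30.7 and 16.2 CPM in DOCA and passed as higher (log2 change 0.83, adjusted p = 0.0386). Library 6 carried that call (0.29 without it, adjusted p = 0.418), and the gene is named here after its value was seen.

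Of 16 AKT substrates and effectors, 2 rose in DOCA (12.5%, beside 5.73% of all genes) and 0 fell (beside 19.7%). TSC2, a brake on mTOR that AKT phosphorylates, had 16.2 to 19.8 CPM in control and 33.5 and 31.8 CPM in DOCA (log2 change 0.86, adjusted p = 0.0124, and 0.0516 without library 6). AKT1S1, the AKT substrate PRAS40, rose from 2.49 ± 0.307 CPM to 4.94 and 5.32 CPM (log2 change 1.04, adjusted p = 0.00798). Of 12 FOXO target genes, whose transcription FOXO factors drive when AKT is inactive, 1 fell (8.33%, beside 19.7%) and 0 rose (beside 5.73%). It was SESN1 (14.1 to 22.7 CPM in control, 7.63 and 8.36 CPM in DOCA, log2 change -1.18, adjusted p = 0.0245), lost without library 6 (0.104) or library 7 (0.0664).

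**Figure D5:**
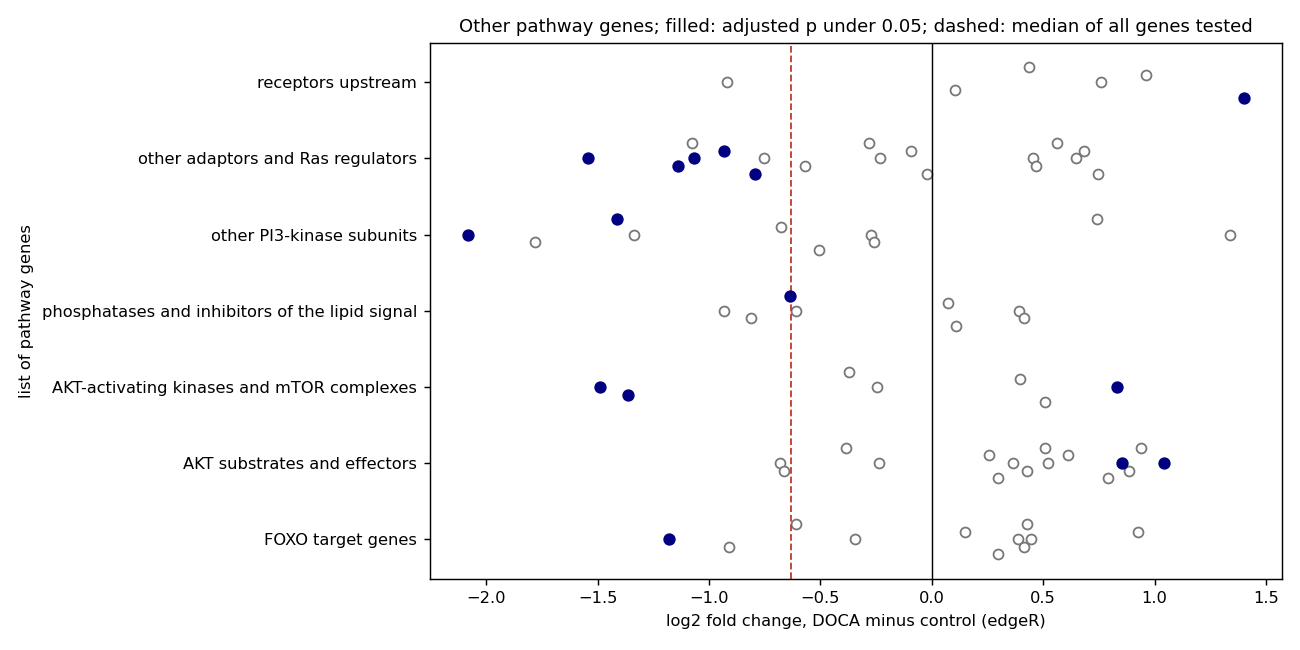
Log2 fold change from control to DOCA (x axis) of 76 of the tested genes in 7 of the 8 pathway lists, with called genes filled and a dashed line at the median of all genes (height within a row has no meaning). Calls among the other adaptors and Ras regulators and the other PI3-kinase genes are all on the lower side, and both calls among the AKT substrates are higher. Genes at 0 in both DOCA libraries, such as NRAS and CCNG2, and some others are left out.

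The pattern of SOS1 over the 10 libraries was compared with that of 12420 genes with a symbol, as the root mean square difference of log2(CPM + 1) after centring each gene. The nearest was ATRX, a chromatin remodeller, at 0.101, with 24.6 ± 3.83 CPM in control, 9.05 ± 0.779 CPM in DOCA and 22.5 ± 1.31 CPM with JK07. ZNF529, a zinc-finger gene, followed at 0.102. It stood at 2.07 ± 0.582 CPM in control and 1.76 ± 0.0898 CPM with JK07 and was listed at 0 in DOCA. Its nearness to SOS1 thus rests on low values and listed zeros. CLPX, a mitochondrial protease subunit, came next at 0.107 (10.5 ± 1.44, 3.16 ± 0.0212 and 8.92 ± 1.55 CPM). The median over all these genes was 0.595. SOS2 ranked 266 and PIK3R1 ranked 1185.

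Marker genes were read to see whether the cells differed between groups. Cardiomyocyte markers, 9 of 10 matched, summed to 3843 to 4665 CPM in control, 3245 to 5326 CPM in DOCA and 4692 to 7444 CPM with JK07. Of the 9, 4 had every JK07 library above every control (beside 3.37% of all genes) and 0 had every one below (beside 2.45%). None of the 9 was called for DOCA plus JK07 against control, and 2 of the 9, SLC8A1 and PLN, fell in DOCA. The counts of lower markers in each list stand beside 19.7% of all genes called lower in DOCA. Markers of other cells were present at lower sums. Endothelial markers summed to 114 to 247, 100 to 168 and 109 to 167 CPM in the 3 groups (1 of 8 lower in DOCA), with EMCN at 0 in both DOCA libraries and TEK at 0 in library 6. Fibroblast markers summed to 617 to 2346, 563 to 2201 and 609 to 1531 CPM (1 of 8 lower). Mural markers summed to 77.4 to 135, 70.2 to 70.7 and 103 to 127 CPM (2 of 7 lower). Among them ABCC9 stood at 23.4 to 57.8 CPM in control and at 9.34 and 4.58 CPM in DOCA, while PDGFRB stood at 11.4 to 28.3 CPM in control and at 37.3 and 23.7 CPM in DOCA. ABCC9 had the highest control mean of the mural list (38.6 CPM, and 6.96 CPM in DOCA), so it weighs heavily in the mural sums. Which cells its RNA came from was not tested, so those sums do not measure mural cell content. Macrophage and lymphocyte markers summed to 38.1 to 131, 57.1 to 66.9 and 24.9 to 69.6 CPM (1 of 7 lower), with CD3E at 0 in 9 of 10 libraries. Their part in the results was not tested.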

How the data were processed

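Nuclear RNA was extracted with TRIzol and prepared with a TruSeq RNA kit, per the labels' protocols. SAMtools, StringTie and edgeR were used on Sscrofa11.1, per the submitters' processing notes. Versions, aligner and strand setting are not given in the sources used here. The authors deposited, per the file headers, a coverage signal, FPKM and TPM per gene and library. FPKM, deposited beside them, entered no test. They also deposited whole-number estimated counts without a gene column. Its lines were matched to the sorted identifiers: 99.998% of values were 0 in both tables or neither, against 62.6% when shifted by 1 line, and each of the 10 columns matched its own library's coverage best. Of 35670 identifiers, 23878 were named in the files and 109 from a reference table.

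All 10 libraries entered 1 model of group in edgeR 4.0.16 (R 4.3.3, legacy quasi-likelihood F test, TMM, filterByExpr), with Benjamini-Hochberg adjustment over 17251 genes per comparison and a threshold of 0.05. The biological coefficient of variation was 0.873. CPM used the total count after TMM scaling, and the SE is the absolute log2 change divided by the square root of F. TPM includes ribosomal RNA, so levels, ratios and shares in TPM were read only within a library. Fits on TPM and rescaled TPM values between groups served only as alternatives. Shares were tested with exact permutation tests (scipy 1.17.1). With 2 DOCA libraries, the spread behind that group's p-values comes mostly from the control and JK07 libraries.

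Members and lists were chosen with earlier results of these data known. Named were all members, up to 3 called genes with the lowest adjusted p per pathway list and comparison, SOS2, PIK3CD, PIK3CG, PIK3R2 and ERBB4 in any case, and the 3 genes nearest to SOS1. Some genes that this rule names are not reported here. Alternatives were other scaling (RLE, upper quartile), no filter, DESeq2 1.42.0, quality weights, limma 3.58.1 on log2(TPM + 1) or log2(TPM + 0.1), removal of ribosomal and mitochondrial genes, only the 2 groups compared, and each library left out. The edgeR test without the legacy option, limma on TPM rescaled without ribosomal RNA, counts thinned to 3.30 M (M, mega), and the medians with zeros at a coverage of 1 were chosen after seeing the data.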

Additional observations from a re-analysis of the deposited data

Results flagged for a closer look

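The AKT1 share of AKT1 plus AKT2 in control library 2 was 65.1%, the lowest of the 5 controls. Its gap to the next library was 0.711 of the group's range, just above the critical value of 0.710. In that library AKT1 stood at 8.96 CPM, the lowest of the 10, and AKT2 at 10.6 CPM, within the range of the other controls. Chance gives such a gap in about 1 of 20 groups, and 12 groups were read.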

How the results depend on the processing

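No paired analysis was possible because the labels number the libraries from 1 to 10 and no number is shared between groups. SOS1 and PIK3CB were called the same way in 22 of 23 alternatives in both DOCA comparisons, the exception being quality weights. PIK3R1 was called in 22 and 15, GRB2 in 10 and 14, and AKT2, from control to DOCA, in 15. Where a DOCA library was left out, the other was assumed to vary like the other groups, and the cause of each change was not tested.

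Genes past the threshold from control to DOCA were 161 with quality weights, against 4391. From DOCA to DOCA plus JK07 they were 5049 with DESeq2, 5 with quality weights and 5626, 6084 and 5355 with limma on TPM (pseudocount 1, pseudocount 0.1, no filter), against 2930, and 2277 to 4455 with 1 library left out. For DOCA plus JK07 against control they were 116 with DESeq2, 8 with quality weights and 5 with limma without a filter. Of the 4391, 3403 were lower and 988 higher. Upper-quartile scaling gave 2868 lower and 1523 higher, and limma 4933 and 258 (pseudocount 1) or 5681 and 221 (0.1). The median log2 change of all genes was -0.63 with TMM, -0.56 with RLE and -0.39 with upper quartile.

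Members past the threshold were 0 with quality weights in both DOCA comparisons. From DOCA to DOCA plus JK07 there were 2 with only the 2 groups in the fit and 2 with rescaled TPM. Leaving out 1 library gave 3 to 5 from control to DOCA and 2 to 4 from DOCA to DOCA plus JK07. Upper-quartile scaling lost the rise of PIK3R1 with JK07 (1.24, adjusted p = 0.0662).

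In limma on TPM, GRB2 fell short of the threshold from control to DOCA (0.22, 0.24, 0.22, and 0.49 rescaled) and from DOCA to DOCA plus JK07 (-0.29, -0.34, -0.29, and -0.87 rescaled), as did AKT2 from control to DOCA (0.013, 0.0059, 0.013, and 0.26 rescaled), in the order pseudocount 1, 0.1, no filter. Some log2 changes that did not pass changed sign with limma on TPM (pseudocount 1, 0.1, then no filter). From control to DOCA these were SHC1 (-0.22, -0.29, -0.22, and -0.039 rescaled) and GAB1 (-0.13, -0.17, -0.13). From DOCA to DOCA plus JK07 they were SHC1 (0.21, 0.28, 0.21), GAB1 (0.29, 0.37, 0.29), AKT1 (0.15, 0.18, 0.15) and AKT2 (0.20, 0.25, 0.20). For DOCA plus JK07 against control they were SOS1 (0.095, 0.11, 0.095), GAB1 (0.16, 0.20, 0.16) and PIK3CB (0.035, 0.028, 0.035), with AKT1 at -0.0020 with quality weights and -0.018 rescaled and AKT2 at -0.019 rescaled. With 1 library left out, that comparison ran from -0.093 to 0.082 for GAB1, -0.40 to 0.032 for PIK3CB, -0.044 to 0.15 for AKT1 and -0.042 to 0.17 for AKT2.

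With 1 library left out, the difference in AKT1 share ran from -2.30 to 4.53 points from control to DOCA, -4.38 to 2.44 from DOCA to DOCA plus JK07 and -1.57 to 0.846 for DOCA plus JK07 against control. The SOS1 share ran from -12.8 to -4.54 and from 2.96 to 11.2 points in the first 2. In estimated counts in place of TPM, the PIK3CB share differed by -48.9 and 53.3 points, which are the control and JK07 means set against library 7, the only DOCA library with a share, at 0.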
